A study of Mus musculus with 14 samples.

Results

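Spp1, Gpnmb, Cst7, Lgals3, Cd9, Clec7a, Ccl6 and Fabp5 were followed in sorted microglia of the mouse cerebral cortex after stroke. They are 8 of the 14084 genes in the deposited count table and were taken by symbol. All 8 were in the table, and all 8 were among the 13861 genes that passed the filter on low counts. The times after stroke were day 1, 3, 7, 21, 60 and 90, with 2 libraries at each time, and 2 sham libraries served as the control, which gave 14 libraries in 7 groups. The animals were C57BL/6 mice of 8 to 10 weeks without a transgene or a drug named in the labels. Whether this is the age at stroke or at sampling was not established, so age at sampling may differ between times. Stroke was produced by tying off the distal middle cerebral artery for good and then closing both common carotid arteries for 7 min. Sham mice had a lesion of the skull surface and no occlusion of an artery. The sources used here do not give the sort markers, the sex of the mice, the time at which sham mice were sampled or whether a library was 1 animal or a pool. P-values therefore measure the spread between these libraries, which may be technical.

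In mouse models of amyloid pathology, demyelination and neurodegeneration, microglia can take on a state known as disease-associated microglia, in which genes of phagocytosis, lysosomal digestion and lipid handling are raised and resting-state genes are lowered. Spp1 encodes osteopontin, a secreted glycoprotein that binds integrins and CD44, and Gpnmb encodes a transmembrane glycoprotein of phagocytic cells that is found on lysosomal membranes. Cst7 encodes cystatin F, an inhibitor of lysosomal cysteine proteases. Lgals3 encodes the carbohydrate-binding protein galectin-3, Cd9 a tetraspanin of the cell membrane, and Clec7a the fungal glucan receptor dectin-1. Ccl6 is a chemokine of rodents, and Fabp5 encodes an intracellular fatty acid-binding protein. All 8 are widely used as markers of activated or disease-associated microglia.

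The sequences around the transcription start sites of 5 of the genes are shown because these genes were called at 2 or more times: Spp1, Gpnmb and Cst7 above sham, and Clec7a and Ccl6 below it. They come from RefSeq on GRCm38.p6, 5′ to 3′ on the strand of the gene, and cover 250 bases before and 50 bases after the start site. RefSeq sequences were matched for 7 of the 8 genes, all but Fabp5. The count data do not bear on binding of any factor at these sites. Capitals mark matches, on either strand, to the letters searched: TGANTCA (AP-1), CATGTG (M-box), CACGTG (E-box of lysosomal genes), GAGGAA (PU.1 core), TTGCNNAA (C/EBP) and, for NF-kB, GGG and TTCC with 3 bases of any kind between them.
Spp1, chr5:104434861-104435160, plus strand: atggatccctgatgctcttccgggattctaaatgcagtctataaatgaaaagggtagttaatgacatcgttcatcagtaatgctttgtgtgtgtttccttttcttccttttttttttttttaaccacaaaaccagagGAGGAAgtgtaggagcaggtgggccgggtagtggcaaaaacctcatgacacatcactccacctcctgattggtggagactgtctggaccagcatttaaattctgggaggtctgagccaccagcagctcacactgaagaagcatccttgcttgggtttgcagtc
Gpnmb, chr6:49036268-49036567, plus strand: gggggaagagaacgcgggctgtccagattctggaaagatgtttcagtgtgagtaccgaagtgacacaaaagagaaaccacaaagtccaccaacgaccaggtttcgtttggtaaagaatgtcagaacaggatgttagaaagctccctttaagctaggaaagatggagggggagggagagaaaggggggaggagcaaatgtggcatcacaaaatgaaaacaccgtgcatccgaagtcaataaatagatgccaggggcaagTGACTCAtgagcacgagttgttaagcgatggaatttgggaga
Cst7, chr2:150570165-150570464, plus strand: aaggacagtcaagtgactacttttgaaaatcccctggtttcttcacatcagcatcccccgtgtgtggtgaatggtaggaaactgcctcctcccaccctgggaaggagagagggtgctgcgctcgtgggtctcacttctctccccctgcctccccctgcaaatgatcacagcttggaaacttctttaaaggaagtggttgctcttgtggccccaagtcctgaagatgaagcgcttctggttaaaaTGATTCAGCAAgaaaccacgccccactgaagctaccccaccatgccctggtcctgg
Clec7a, chr6:129472730-129473029, minus strand: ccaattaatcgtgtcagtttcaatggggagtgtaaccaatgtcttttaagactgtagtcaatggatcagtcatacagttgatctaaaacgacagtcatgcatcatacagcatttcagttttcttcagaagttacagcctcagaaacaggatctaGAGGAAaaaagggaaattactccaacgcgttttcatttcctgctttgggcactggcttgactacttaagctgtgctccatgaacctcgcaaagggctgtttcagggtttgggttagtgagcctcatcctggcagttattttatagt
Ccl6, chr11:83593038-83593337, minus strand: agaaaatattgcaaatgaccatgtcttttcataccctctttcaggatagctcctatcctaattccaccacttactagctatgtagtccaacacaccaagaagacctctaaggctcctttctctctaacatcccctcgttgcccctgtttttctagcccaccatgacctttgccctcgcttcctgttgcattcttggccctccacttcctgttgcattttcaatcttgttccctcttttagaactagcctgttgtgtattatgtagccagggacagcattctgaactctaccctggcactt
Among the 7 matched promoters, the AP-1 letters were present in Gpnmb and Cst7, against 7.93% of 27025 mouse promoters of the same length. In Cst7 the AP-1 match overlapped a C/EBP match, a motif present in 10.8% of all promoters. The PU.1 core was present in Spp1 and Clec7a, against 28.3% of all promoters. The M-box and NF-kB letters were present only in Cd9 of the 7, against 14.1% and 5.52% of all promoters, and the E-box in none, against 7.24%. No match was found in Ccl6 or Lgals3. A match describes letters in this window and not a bound site.

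Total counts were 15254983 to 28758420 in the libraries of replicate 1 and 100625099 to 191692779 in those of replicate 2, so depth and replicate number cannot be told apart. Levels are given as CPM, a gene's share of its library's counts brought to a common total, with TMM scaling, and sums over marker lists as CPM without that scaling. The 15 listed markers of homeostatic microglia, among them Tmem119 and P2ry12, were detected in every library. Their summed level was 3376 to 29689 CPM in the 12 stroke libraries and 2781 to 5449 in the sham libraries. Sham libraries differed from stroke libraries in some markers of blood cells and not in others. The 6 B cell markers in the table summed to 122 and 142 CPM in sham libraries, within the 7.46 to 287 of stroke libraries. The 10 T and NK cell markers summed to 43.4 and 67.5, within 5.76 to 160. Alas2 and neutrophil markers were higher in both sham libraries than in every stroke library. Alas2, an enzyme of heme synthesis in red cell precursors, was at 0 to 4.37 TMM-scaled CPM in stroke libraries, against 181 and 243 in sham libraries. The 14 neutrophil markers summed to 394 to 8665 in stroke libraries, against 22766 and 33610 in sham libraries. The 11 monocyte markers summed to 207 to 8160, against 7262 and 12782, and day 1 replicate 2 was above sham replicate 1. The 11 markers of border-associated macrophages ran the other way, with 400.4 to 2334 in stroke libraries and 66.3 and 169 in sham libraries, where Cd209f was at 0 in both and Folr2 at 0 in replicate 1. In bulk RNA of sorted cells, fewer cells of a type and less RNA per cell cannot be told apart. The 2 libraries of day 1 and those of day 21 differed most within a group, with a correlation of log2 CPM over genes of 0.885 and 0.824, against 0.903 to 0.942 in the other groups. In replicate 1 and 2 of day 1, neutrophil markers were at 1447 and 8665 CPM and monocyte markers at 1398 and 8160. On day 21 these were at 8345 and 972 CPM and at 3740 and 207. Homeostatic markers were at 4847 and 3376 CPM on day 1 and 9823 and 29689 on day 21.

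**Figure D1:**
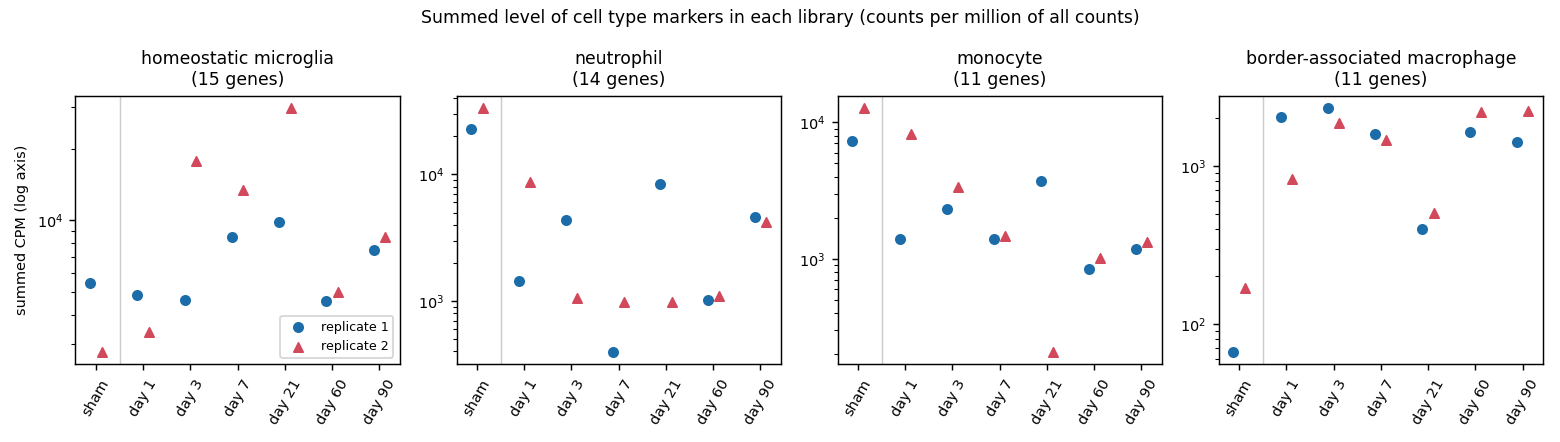
Summed level of 4 marker lists in each library, in unscaled CPM on a log axis, with sham at the left and the times after stroke in order; circles are replicate 1 and triangles replicate 2. Neutrophil markers were at 22766 and 33610 in sham libraries, above all 12 stroke libraries, and border-associated macrophage markers were at 66.3 and 169 in sham libraries, below all 12.

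Spp1 and Gpnmb were higher than sham at all 6 times and Cst7 at 5 of 6, while Clec7a was lower on day 1 and day 3 and Ccl6 on day 7 and day 21. Lgals3 and Fabp5 were higher on day 60 alone, and Cd9 passed the test at no time. Calls are from edgeR's quasi-likelihood test, with p-values adjusted by Benjamini-Hochberg over all 13861 genes and a threshold of 0.05. At day 1, 2 of the 8 genes were called higher and 1 lower, where 4.55% of all genes were called, 3.18% higher and 1.37% lower. Day 3 gave 3 higher and 1 lower, against 8.28% of all genes, 5.2% and 3.07% by direction. At day 7 the counts were 3 higher and 1 lower, against 12.6% of all genes, 7% and 5.63% by direction. Day 21 also gave 3 higher and 1 lower, against 6.44%, 5% and 1.44% by direction. At day 60, 5 were called higher and 0 lower, against 7.85%, 4.96% and 2.89% by direction. Day 90 gave 3 higher and 0 lower, against 7.86%, 5.12% and 2.73% by direction.

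The median log2 fold change of the 8 genes was 2.69 on day 1, 3.08 on day 3, 2.72 on day 7, 1.94 on day 21, 3.83 on day 60 and 2.70 on day 90. Over all genes tested the median was 0.04 to 0.15. Both stroke libraries lay above both sham libraries for Spp1, Gpnmb, Cst7, Lgals3, Cd9 and Fabp5, 6 of the 8, at every time but day 21. The share of all genes in that position was 22.2% on day 1, 28.9% on day 3, 32.1% on day 7, 33.9% on day 60 and 36.4% on day 90. At day 21 only Spp1, Gpnmb and Cst7 lay wholly above sham, against 27.5% of all genes, and the libraries of Lgals3, Cd9 and Fabp5 overlapped with sham. Both stroke libraries lay below both sham libraries for Clec7a and Ccl6 at all 6 times, a position held by 23%, 24.5%, 27.6%, 24.1%, 26.9% and 27.2% of all genes from day 1 to day 90. When 1 of the 14 libraries was left out, the number of the 8 genes called on day 21 and on day 60 changed. It was lowest without sham replicate 2 on day 21 and without sham replicate 1 on day 60. Calls over all genes were also lowest in these fits, so the drop is not particular to the 8 genes.

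**Figure D2:**
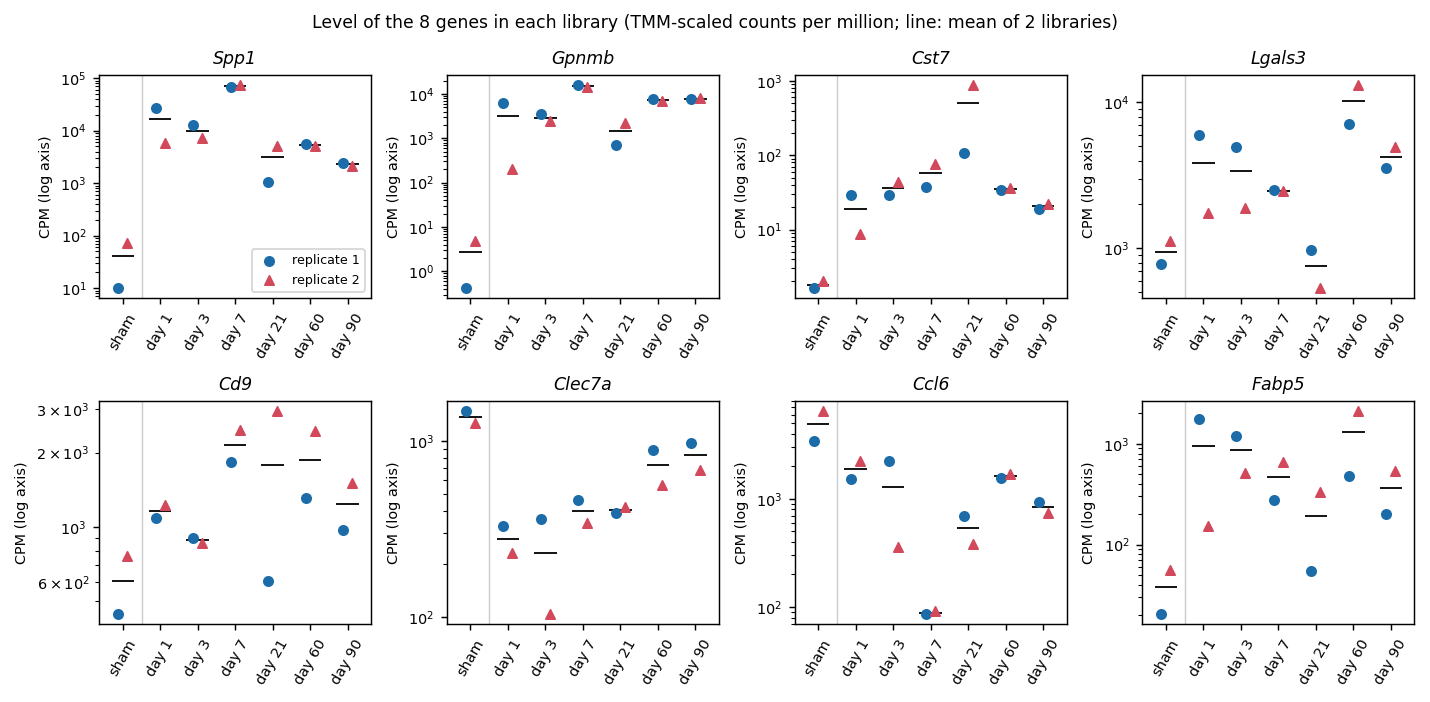
Level of each of the 8 genes in each library, in TMM-scaled CPM on a log axis, with sham at the left and the times after stroke in order; circles are replicate 1, triangles replicate 2, and the line is the mean of the 2 libraries. Spp1 peaked at day 7 with 66734 and 75153 CPM, Cst7 was highest at day 21 with 106 and 892 CPM, and Ccl6 was lowest at day 7 with 85.9 and 91.9 CPM.

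**Figure D3:**
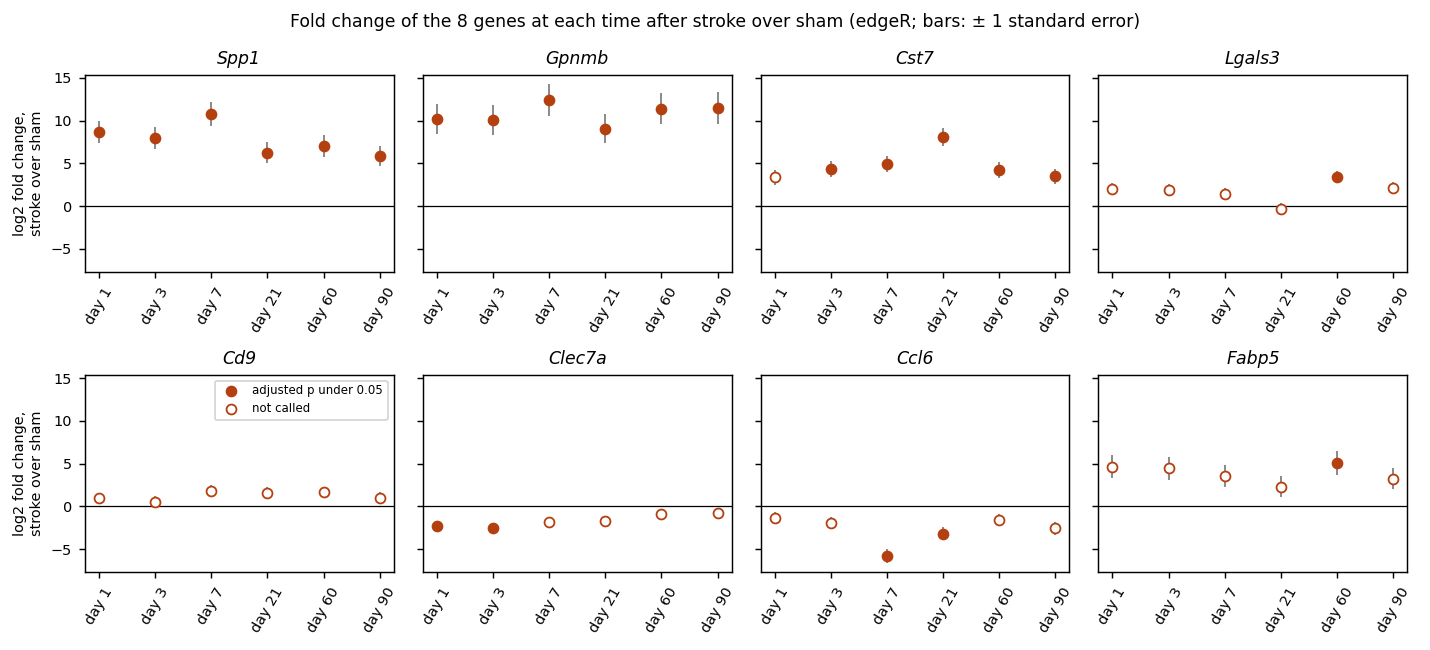
Log2 fold change of each gene at each time after stroke over sham, from edgeR, with bars of 1 standard error. That error is the size of the log2 fold change over the square root of the test's F statistic. Filled points have an adjusted p under 0.05 over all genes. Spp1 and Gpnmb were called at all 6 times, Cst7 at 5, Clec7a and Ccl6 at 2 each below 0, Lgals3 and Fabp5 at day 60, and Cd9 at none.

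Spp1, the osteopontin gene, was higher at every time after stroke and peaked on day 7. It was measured at 10.1 and 71.0 CPM in sham, 27179 and 5790.1 on day 1, 12649 and 7212 on day 3, 66734 and 75153 on day 7, 1072 and 5196 on day 21, 5468 and 5211 on day 60 and 2429 and 2144 on day 90. All 12 stroke libraries lay above both sham libraries, the lowest of them on day 21. At day 7 Spp1 took 7.45% and 6.77% of all counts, with exact binomial 95% intervals of 7.43% to 7.46% and 6.77% to 6.78% that cover counting error only. It ranked 1 and 2 among all genes by count in these 2 libraries, and 6832 and 2476 in sham.

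The log2 fold change of Spp1 over sham was 8.67 ± 1.33 (SE) on day 1 (edgeR adjusted p = 0.00543), 7.93 ± 1.29 on day 3 (0.00545) and 10.77 ± 1.45 on day 7 (0.00200). It was 6.27 ± 1.20 on day 21 (0.0132), 7.04 ± 1.24 on day 60 (0.00761) and 5.82 ± 1.18 on day 90 (0.0140). SE here and below is the size of the log2 fold change over the square root of the test's F statistic. By mean level the order was sham, day 90, day 21, day 60, day 3, day 1 and day 7. The libraries of day 90 and day 21 overlapped, as did those of day 3 and day 1, while day 7 stood above every other group. No test between times passed the threshold: day 7 against day 3 gave 2.84 ± 1.02 and day 21 against day 7 gave -4.50 ± 1.10, with edgeR adjusted p of 1.00 and 0.271.

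The size of the Spp1 change rests on which sham library is the base. Without sham replicate 1 the 6 log2 fold changes lay between 5.08 and 10.01, with adjusted p of 0.0768 on day 21, 0.0654 on day 60 and 0.0813 on day 90. Without sham replicate 2 they lay between 7.82 and 12.77, with 0.0529 on day 21. The day 1 value was 7.16 without day 1 replicate 1 and 9.39 without day 1 replicate 2, and the day 21 value 7.04 and 4.73 without day 21 replicate 1 and 2. A fit of the day 21 and sham libraries alone gave an adjusted p of 0.158 on day 21. Spp1 shares 11.59% of its 50-base words with Gm42793, a gene model on the same strand that overlaps it, so part of its reads could be counted elsewhere.

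Of the 9 osteopontin receptor genes on the list, the integrin subunits Itga9 and Itgb5 were higher at all 6 times. Itga9, which pairs with Itgb1, was measured at 8.81 to 43.0 CPM after stroke, against 0.364 and 0.190 CPM in sham. Its log2 fold change was between 5.70 ± 0.62 on day 21 and 7.18 ± 0.66 on day 90, with edgeR adjusted p of 0.00126 and 0.000218. Itgb5, a partner of the alpha-v subunit, was at 504 to 2462 CPM after stroke, against 89.5 and 89.3 CPM in sham, and rose most on day 7 with 4.35 ± 0.66 (0.00355). Itgb3 was lower on day 1 by a log2 fold change of -4.15 ± 0.99 (0.0355) and on day 7 by -3.12 ± 0.94 (0.0495). Without sham replicate 1 these values were -3.01 and -1.94 (0.248 and 0.326), and the calls were lost in 9 of 23 and 11 of 24 alternatives. In all, 2 receptors were higher and 1 lower on day 1, 3 and 2 on day 7, and 2 and 0 at each of the other times. Of all genes, 4.55% were called on day 1, 12.6% on day 7 and 6.44% to 8.28% at the other times. Leaving out 1 library changed the number of called receptors at every time, as it did the number called over all genes.

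Cd44 and Itgav, named after their values were seen, passed on day 7 alone. Cd44 was at 237 and 134 CPM on day 7, against 1611 and 759 CPM in sham, a log2 fold change of -2.68 ± 0.74 (edgeR adjusted p = 0.0370). Itgav was at 339 and 91.4 CPM, against 63.4 and 32 CPM, a log2 fold change of 2.17 ± 0.63 (0.0435). The 2 sham libraries carried much of the weight of all listed genes: of 87 calls named by the rule over all lists, 22 remained without sham replicate 1 and 22 without sham replicate 2, against 59 to 86 without any 1 of the stroke libraries. Itga9 kept its call at all 6 times in both cases, with log2 fold changes of 5.19 to 7.67, and lost it in a fit of day 21 and sham alone, where adjusted p was 0.110. Itgb5 kept 1 of 6 calls in each case, with adjusted p of up to 0.181.

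**Figure D4:**
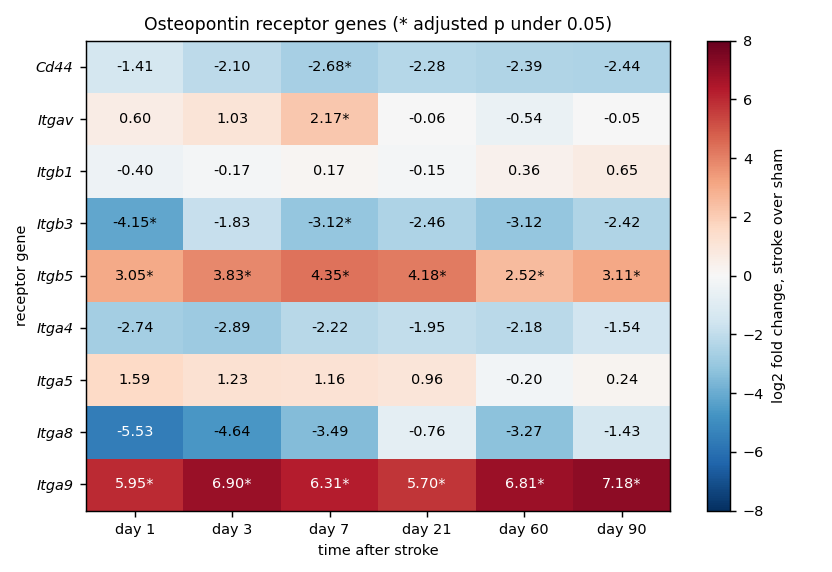
Log2 fold change over sham of the 9 osteopontin receptor genes on the list, at each time after stroke; red is higher and blue lower after stroke, and a star marks an edgeR adjusted p under 0.05 over all genes. Itga9, at 5.70 to 7.18, and Itgb5, at 2.52 to 4.35, were called at all 6 times.

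Gpnmb was close to undetected in sham and stayed high to the last time measured. It was measured at 0.424 and 4.92 CPM in sham, 6114 and 207 on day 1, 3449.8 and 2400.3 on day 3, 16108 and 14394 on day 7, 709 and 2238 on day 21, 7718 and 6966 on day 60 and 7747 and 7901 on day 90. The sham values are 7 of 15254983 counts and 414 of 100625099 counts. Every stroke library was above both sham libraries, and the lowest was day 1 replicate 2. The libraries of day 60 and day 90 were close to each other, at means of 7342 ± 532 and 7824 ± 109 CPM (SD, n = 2 each).

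The log2 fold change of Gpnmb over sham was 10.18 ± 1.76 on day 1 (edgeR adjusted p = 0.00911), 10.07 ± 1.75 on day 3 (0.00696) and 12.45 ± 1.90 on day 7 (0.00356). It was 9.08 ± 1.68 on day 21 (0.0118), 11.40 ± 1.84 on day 60 (0.00517) and 11.49 ± 1.84 on day 90 (0.00491). By mean level the order was sham, day 21, day 3, day 1, day 60, day 90 and day 7, and only day 3 and day 1 overlapped among neighbours. No difference between successive times passed the test, with edgeR adjusted p of 0.423 to 1.00.

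The Gpnmb values also move with the base. Without sham replicate 1 the log2 fold changes lay between 8.29 and 11.64, with adjusted p of 0.0707 on day 1, 0.0530 on day 3, 0.0730 on day 21 and 0.0507 on day 60, and without sham replicate 2 they lay between 11.75 and 15.13, with 0.0602 on day 21. The day 1 value was 6.25 without day 1 replicate 1 and 11.13 without day 1 replicate 2, and the day 21 value 9.73 and 8.02 without day 21 replicate 1 and 2. Fits of sham with day 1 alone and with day 21 alone gave adjusted p of 0.260 and 0.120.

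Of the 5 listed genes, Mitf and its relatives Tfeb, Tfe3 and Tfec and the Gpnmb paralog Pmel, Tfeb was the only one called. Tfeb, a transcription factor of lysosomal genes, was lower on day 1, 3, 7 and 60, when 4.55%, 8.28%, 12.6% and 7.85% of all genes were called. It was at 62.9 and 63.8 CPM on day 3, against 246 and 188 CPM in sham, a log2 fold change of -1.78 ± 0.39 (edgeR adjusted p = 0.0193). Its 4 calls were lost without either sham library, with adjusted p of 0.0593 to 0.251. Mitf was not called, at 11.7 to 34.0 CPM after stroke and 15.5 and 4.36 CPM in sham. Pmel was below 1 CPM in all 14 libraries.

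The balance between Gpnmb and Spp1 changed over time within libraries, a ratio that scaling between libraries cannot alter. There were 0.0419 and 0.0693 Gpnmb counts for each Spp1 count in sham, 0.225 and 0.0358 on day 1, 0.273 and 0.333 on day 3, and 0.241 and 0.192 on day 7. At later times there were 0.661 and 0.431 on day 21, 1.41 and 1.34 on day 60, and 3.19 and 3.68 on day 90. The 6 libraries of day 21 to day 90 all lay above the 6 of day 1 to day 7, and those of day 60 and day 90 were the ones with more Gpnmb than Spp1 counts. Per base of the longest RefSeq mRNA, Gpnmb exceeded Spp1 on day 90 alone, at 1.3 and 1.5. This ratio was chosen after the values were seen and is given as a description without a test.

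**Figure D5:**
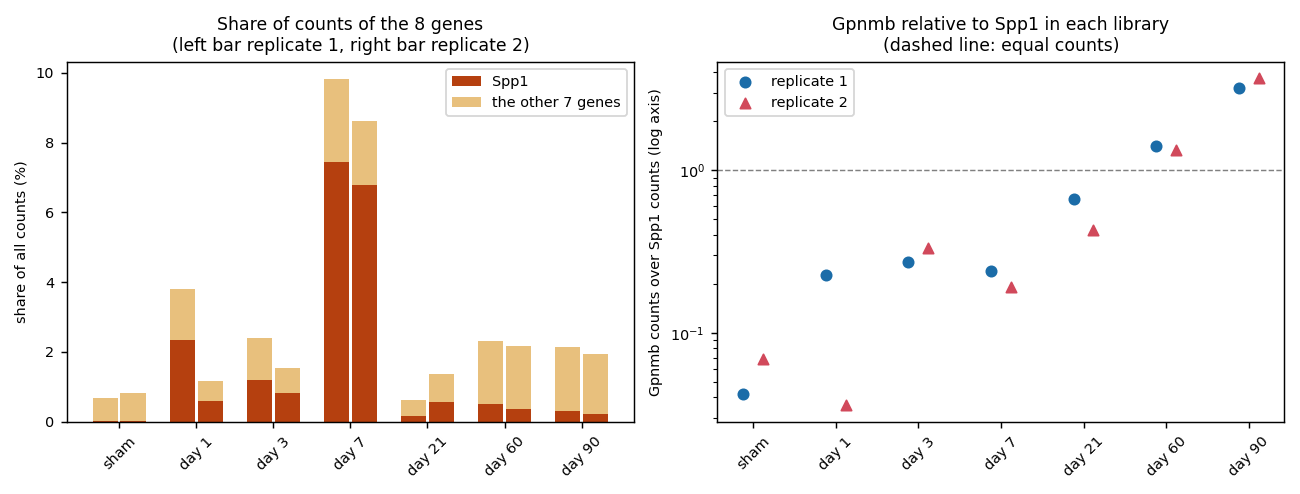
Left, share of all counts taken by Spp1 (dark) and by the other 7 genes (light) in each library, with replicate 1 at the left of each pair; right, Gpnmb counts over Spp1 counts in each library on a log axis, with a dashed line at equal counts. The 8 genes together took 9.83% and 8.62% of counts at day 7, against 0.667% and 0.818% in sham, and the ratio reached 3.19 and 3.68 at day 90.

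Cst7 had its maximum on day 21, later than Spp1 and Gpnmb. Levels were 1.64 and 2.0 CPM in sham, 28.8 and 8.61 on day 1, 28.9 and 43.9 on day 3, 37.2 and 77.3 on day 7, 106 and 892 on day 21, 33.6 and 35.8 on day 60 and 19.0 and 22.2 on day 90. All stroke libraries were above sham, and both day 21 libraries were above all others. The 2 day 21 libraries differed from each other by 3.07 on the log2 scale, the widest gap of any group for this gene.

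The log2 fold change of Cst7 over sham was 8.09 ± 1.08 on day 21 (edgeR adjusted p = 0.00276). It was 3.35 ± 0.88 on day 1 (0.0512, not called), 4.32 ± 0.92 on day 3 (0.0166) and 4.97 ± 0.94 on day 7 (0.00810). At day 60 it was 4.25 ± 0.91 (0.0193) and on day 90 3.50 ± 0.88 (0.0349). Cst7 was also the only one of the 8 genes to pass a joint edgeR test of differences among the 6 times, made in the fit of all 14 libraries (adjusted p = 0.0343), which called 0.866% of all genes. The joint adjusted p of the other 7 genes was 0.102 for Spp1 and 0.129 to 0.805 for the rest. Which genes passed depended on the tool. The joint test of limma-voom called Ccl6 (adjusted p = 0.0462) and not Cst7 (0.108). That of DESeq2 called Cst7 (2.43e-10), Spp1 (4.87e-07), Ccl6 (4.14e-05) and Lgals3 (0.000403).

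Without sham replicate 1 the Cst7 calls on day 3, 7, 60 and 90 were lost, with adjusted p of 0.0684 to 0.169, and without sham replicate 2 those at all 5 times, with 0.0529 to 0.153. The call on day 3 was also lost without day 3 replicate 2 (0.0663), that on day 60 without either day 60 library (0.0618 and 0.0779), that on day 90 without any day 60 or day 90 library (0.0540 to 0.118), and those of day 3, 60 and 90 under limma-voom (0.0556 to 0.0997). The day 7 value was 4.35 without day 7 replicate 2, and the day 21 value was 8.97 and 5.86 without day 21 replicate 1 and 2, and 0.112 was its adjusted p in a fit of day 21 and sham alone. The joint call of Cst7 was lost in 12 of the 14 fits that left out 1 library, all but those without day 1 replicate 1 or day 21 replicate 1, with adjusted p of 0.0523 to 0.230, the highest without day 21 replicate 2. It was also lost without both sham libraries (0.0539) and without both day 21 libraries (0.439). Times at which Cst7 was not called passed the test in some alternatives, 8 on day 1, with adjusted p of 0.00129 to 0.0466. Markers of homeostatic microglia moved with Cst7 on day 21, at 9823 and 29689 CPM in replicate 1 and 2, and replicate 2 was the highest of all libraries. Neutrophil and monocyte markers ran the other way, at 8345 and 972 CPM and at 3740 and 207 CPM. The part of any of these in the Cst7 level was not tested.

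Among the 8 genes of other cystatins and of cathepsins on the list, the lysosomal proteases Ctsl and Ctsb rose. Ctsl was at 442 to 3661 CPM after stroke, against 51.2 and 84.5 CPM in sham, and was called at all 6 times with log2 fold changes of 4.05 ± 0.83 on day 7 to 5.42 ± 0.88 on day 60 (edgeR adjusted p = 0.0113 and 0.00528). Ctsb was called at every time but day 21, with 25573 and 34464 CPM on day 7, against 1888 and 2249.6 CPM in sham. Ctss was called on day 60 alone, at 3.45 ± 0.87 (0.0351), and the cytosolic inhibitor Cstb on day 3 alone, at 2.67 ± 0.73 (0.0449). No listed gene was called lower. Of all genes, 4.55% to 12.6% were called at the 6 times, and 1.37% to 5.63% were called lower. None of these calls remained without either sham library, with adjusted p of 0.0518 to 0.234.

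Lgals3 was already present in sham and had its maximum on day 60. Levels were 779 and 1126 CPM in sham, 5975 and 1757 on day 1, 4936 and 1884 on day 3, 2516 and 2456 on day 7, 969 and 537 on day 21, 7104 and 13224 on day 60 and 3531 and 4945 on day 90. The day 21 libraries overlapped with sham, and the 2 day 60 libraries were above all 12 others. The log2 fold change was called on day 60 alone, at 3.42 ± 0.74 (edgeR adjusted p = 0.0208). It was 2.02 ± 0.70 on day 1, 1.84 ± 0.70 on day 3, 1.38 ± 0.69 on day 7, -0.34 ± 0.68 on day 21 and 2.15 ± 0.71 on day 90, with adjusted p of 0.0814 to 0.795.

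The day 60 call of Lgals3 was lost without sham replicate 1 (0.160), sham replicate 2 (0.0886) or day 60 replicate 2 (0.129), with log2 fold changes of 2.90 to 3.70. Times at which Lgals3 was not called passed the test in some alternatives, 2 on day 1, 1 on day 3 and 6 on day 90, with adjusted p of 0.0101 to 0.0479. Of the 9 other galectin genes on the list, 5 were in the table. The share of all genes called at the 6 times was 4.55% to 12.6%. Lgals1 was called on day 3 alone, with 1308 and 306 CPM, against 37.6 and 114 CPM in sham, a log2 fold change of 3.42 ± 0.87 (edgeR adjusted p = 0.0329). Lgals3bp, which encodes a galectin-3 binding glycoprotein, was higher on day 7, 21 and 60 by 2.86 ± 0.72, 3.66 ± 0.75 and 3.33 ± 0.73. These 3 calls and that of Lgals1 were lost without either sham library, with adjusted p of 0.0793 to 0.201.

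Cd9 varied least of the 8 genes over the 14 libraries, with an SD of log2 CPM of 0.80, against 4.51 for Gpnmb. It was measured at 444 and 766 CPM in sham, 1091 and 1233 on day 1, 905 and 864 on day 3, 1839 and 2467 on day 7, 604 and 2948 on day 21, 1312 and 2440.0 on day 60 and 974 and 1513 on day 90. Of the 12 stroke libraries, day 21 replicate 1 was the one that did not exceed both sham libraries. The log2 fold changes from day 1 to day 90 were 0.94 ± 0.67, 0.55 ± 0.66, 1.83 ± 0.68, 1.55 ± 0.67, 1.63 ± 0.68 and 1.04 ± 0.67, with edgeR adjusted p of 0.0965 on day 7 and 0.149 to 0.643 at the other times. Cd9 was called on day 21 without day 21 replicate 1, at 2.32 (0.0165), and on day 7 in 5 alternatives (0.0233 to 0.0370). The annotation places Gm28809 and Gm26728 on the opposite strand over Cd9, and no strand setting is given, so their reads cannot be told apart from those of Cd9.

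Tspan4 and Cd81, other tetraspanins, were higher after stroke. Of 11 tetraspanins and Cd9 partners on the list, 3 were higher and 1 lower on day 1, 5 and 1 on day 3, 4 and 1 on day 7, and 4 and 0 on day 21, 60 and 90. The share of all genes called at these times was 4.55% to 12.6%. Leaving out 1 library changed the number of called genes of this list at every time, as it did the number called over all genes. Tspan4 was at 25.95 to 254 CPM after stroke, against 1.09 and 1.41 CPM in sham, and its log2 fold change was 6.22 ± 1.02 on day 21 to 7.27 ± 1.06 on day 60 (edgeR adjusted p = 0.00628 and 0.00348). Cd81 was called at every time but day 1, at 149.6 to 2122 CPM, against 33.0 and 39.7 CPM in sham. Without sham replicate 1 and 2, Tspan4 kept 1 and 2 of its 6 calls, and Cd81 kept 0 of 5. Tspan3 was called at all 6 times, with log2 fold changes of 2.44 ± 0.39 on day 1 to 3.74 ± 0.41 on day 60.

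Clec7a was lower on day 1 and day 3 after stroke, against its usual place among genes raised in disease-associated microglia. It was measured at 1483 and 1275 CPM in sham, 328 and 231 on day 1, 362 and 104 on day 3, 463 and 344 on day 7, 391 and 421 on day 21, 896 and 567 on day 60 and 979 and 685 on day 90. All 12 stroke libraries were below both sham libraries, and the values on day 60 and day 90 were above those of day 1 to day 21. The log2 fold change was -2.30 ± 0.58 on day 1 (edgeR adjusted p = 0.0467) and -2.57 ± 0.59 on day 3 (0.0231). At day 7 and day 21 it was -1.77 ± 0.57 and -1.76 ± 0.57 (0.0626 and 0.0871), and on day 60 and day 90 -0.91 ± 0.56 and -0.73 ± 0.56 (0.316 and 0.440).

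The Clec7a call on day 3 was lost without sham replicate 1 (0.0983), sham replicate 2 (0.0755) or day 3 replicate 2 (0.116, log2 fold change -1.93), and the value was -3.72 without day 3 replicate 1. The day 1 call was lost in 12 of 23 alternatives, among them every one without a sham, day 1, day 7, day 60 or day 90 library, with adjusted p of 0.0546 to 0.177. Times at which Clec7a was not called passed the test in some alternatives, 5 on day 7 and 4 on day 21, with adjusted p of 0.00939 to 0.0438. Neutrophil markers summed to 394 to 8665 CPM after stroke, against 22766 and 33610 in sham, and their part in the Clec7a level was not tested.

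Of 12 genes of dectin-1 signalling and related lectins on the list, 0 were called on day 1, 21, 60 and 90. At these times 4.55% to 7.86% of all genes were called. At day 3 the scavenger receptor Olr1 was higher and the kinase Prkcd lower, at log2 fold changes of 2.51 ± 0.66 and -2.06 ± 0.54 (edgeR adjusted p = 0.0373 and 0.0369). At day 7 the lectin Clec4d was lower, with 33.6 and 28.1 CPM, against 168 and 358 CPM in sham, at -3.09 ± 0.90 (0.0435). All 3 calls were lost without either sham library, with adjusted p of 0.0832 to 0.181.

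Ccl6 was lower on day 7 and day 21 after stroke and had its minimum on day 7, the time of the Spp1 maximum. It was measured at 3435 and 6485 CPM in sham, 1537 and 2258 on day 1, 2244 and 356 on day 3, 85.9 and 91.9 on day 7, 693 and 379 on day 21, 1548 and 1679 on day 60 and 942 and 738 on day 90. All 12 stroke libraries were below both sham libraries, and both day 7 libraries were below the 10 other stroke libraries. Its log2 fold change was -5.80 ± 0.87 on day 7 (edgeR adjusted p = 0.00327) and -3.21 ± 0.77 on day 21 (0.0323). It was -1.39 ± 0.72 on day 1, -1.93 ± 0.73 on day 3, -1.62 ± 0.72 on day 60 and -2.56 ± 0.75 on day 90, with adjusted p of 0.0561 on day 90 and 0.119 to 0.286 at the other 3.

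The day 7 call of Ccl6 was kept under all 24 alternatives, with log2 fold changes of -6.15 to -5.27 when a sham library was left out. The day 21 call was lost without either sham library (0.0750 and 0.164), without day 21 replicate 2 (0.195), without any library of day 7, 60 or 90 (0.0518 to 0.0584) and in a fit of day 21 and sham alone (0.197). Times at which Ccl6 was not called passed the test in some alternatives, 2 on day 3 and 8 on day 90, with adjusted p of 0.00219 to 0.0437. The chemokine Ccl9 was called lower on day 7 alone, with 90.5 and 66.7 CPM, against 446 and 851 CPM in sham, at -3.04 ± 0.90 (edgeR adjusted p = 0.0457). Ccr1, a receptor of these chemokines, was called lower on day 90 alone, with 54.6 and 32.4 CPM, against 1244 and 804 CPM in sham, at -4.56 ± 1.25 (0.0478). Neutrophil markers were at 394 and 983 CPM on day 7, against 22766 and 33610 in sham. They were at 8345 and 972 CPM on day 21, 1026 and 1092 on day 60 and 4638 and 4205 on day 90. Their part in the levels of Ccl6, Ccl9 and Ccr1 was not tested. The Ccl9 and Ccr1 calls were lost without either sham library, with adjusted p of 0.0932 to 0.165. The gene model E230016K23Rik lies over Ccl6 on the opposite strand.

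Fabp5 was high in some stroke libraries and differed widely within groups. Its levels were 20.4 and 56.4 CPM in sham, 1763 and 152 on day 1, 1205 and 513 on day 3, 277 and 659 on day 7, 54.4 and 329.6 on day 21, 474 and 2113 on day 60 and 199.9 and 531 on day 90. Day 21 replicate 1 lay between the sham libraries and the other 11 stroke libraries were above both. Fabp5 passed on day 60 alone, with a log2 fold change of 5.07 ± 1.37 (edgeR adjusted p = 0.0456). The values on day 1, 3, 7, 21 and 90 were 4.64 ± 1.34, 4.48 ± 1.33, 3.61 ± 1.28, 2.32 ± 1.21 and 3.25 ± 1.26, with adjusted p of 0.0610 to 0.259.

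The day 60 call of Fabp5 was lost in 10 alternatives that left out 1 library of sham, day 3, 7, 60 or 90, with adjusted p of 0.0579 to 0.264 and log2 fold changes of 3.62 without day 60 replicate 2 to 5.98 without sham replicate 2. Times at which Fabp5 was not called passed the test in some alternatives, 6 on day 1, 10 on day 3, 5 on day 7 and 2 on day 90, with adjusted p of 0.000280 to 0.0479. Fabp5 shares 5.10% of its 50-base words with the gene model Gm6166. Of 10 other fatty acid genes on the list, 7 were tested. The share of all genes called at the 6 times was 4.55% to 12.6%. The fatty acid transporter Cd36 was lower on day 21, with 15.1 and 27.5 CPM, against 85.8 and 143 CPM in sham, and higher on day 7, 60 and 90, with 467 to 1102 CPM. Pparg, a nuclear receptor of lipid metabolism, was lower on day 21 at -2.26 ± 0.44 and higher on day 60 and 90 at 2.05 ± 0.44 and 1.60 ± 0.43 (edgeR adjusted p = 0.0141, 0.0188 and 0.0426). Fabp4 was called higher on day 60 alone, at 4.2 ± 1.11 (0.0415), and the ligase Acsl1 was lower on day 1, 3, 7 and 60. The calls of Cd36 and Pparg at these times, of Acsl1 on day 1, 3 and 7 and of Fabp4 were lost without either sham library, with adjusted p of 0.0619 to 0.248.

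Most of the 28 other disease-associated genes on the list that passed the test were higher. The counts were 11 higher and 0 lower on day 1, 13 and 1 on day 3, 14 and 1 at each of day 7 and day 21, 16 and 1 on day 60, and 10 and 2 on day 90. Of all genes, 4.55% to 12.6% were called at these times. The list's median log2 fold change was 2.10 to 3.13, against 0.04 to 0.15 over all genes. When 1 library was left out, the number of called genes of the list changed at every time and was lowest without one of the sham libraries. Calls over all genes also fell at every time without a sham library, so the drop is not particular to this list. Igf1, a growth factor, was at 3.26 to 403 CPM after stroke, against 0.243 and 0.665 CPM in sham, with log2 fold changes of 6.12 ± 1.22 on day 3 to 9.60 ± 1.40 on day 60. Trem2, a lipid-sensing receptor, was at 185 to 3377 CPM after stroke, against 17.2 and 28.0 CPM in sham, and was called at all 6 times. The adhesion molecule Cadm1 was at 7.20 to 183 CPM, against 0.424 and 0.368 CPM, and kept its calls of day 3 to day 90 without either sham library. Igf1 kept 1 and 2 of its 6 calls without sham replicate 1 and 2, and the calls of Trem2 on day 1 and day 60 were lost in both cases, with adjusted p of 0.0711 to 0.209.

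Lpl, Plin2 and Ank, 3 of these 28 genes, also differed among the 6 times in the joint edgeR test, which called 0.866% of all genes. They are named after their values were seen. Calls of this test over all genes moved widely when 1 library was left out. Whether these 3 calls were kept in such fits is not reported here. Lpl, which encodes lipoprotein lipase, was at 86.5 to 141 CPM on day 1 and 3 and at 4356 to 5039 CPM on day 60 and 90 (adjusted p = 0.0124). Plin2, which coats lipid droplets, was at 2116 to 4526 CPM on day 1 and 3 and 377 and 268 CPM on day 21 (0.0338). Ank, a phosphate transporter, was highest on day 7 and 21, at 85.7 to 196 CPM (0.0497).

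Of the 8 genes, 0 were called in any of the 5 comparisons of successive times, in which 0%, 0.00721%, 0%, 0.0216% and 0% of all genes were called. At an unadjusted p under 0.05, 0 of the 8 passed between day 1 and 3, 2 between day 3 and 7, 5 between day 7 and 21, 4 between day 21 and 60 and 0 between day 60 and 90. Of all 13861 genes, 348, 574, 1340, 1802 and 442 passed in the same order. DESeq2 called 0, 1, 3, 2 and 0 of the 8 in the same 5 comparisons. Of all genes it called 5, 116 and 387 in the first 3 of them, and all 5 counts are given below. The largest differences were -4.50 ± 1.10 for Spp1 on day 21 against day 7, -3.87 ± 0.79 for Ccl6 on day 7 against day 3, -3.85 ± 0.89 for Cst7 and 3.75 ± 0.76 for Lgals3 on day 60 against day 21, with edgeR adjusted p of 0.196 to 0.306.

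The order of the 8 genes by level changed with time. As CPM per kilobase of mRNA (RPKM), Ccl6 was highest in sham at a mean of 3444 ± 1497 (SD, n = 2), followed by Lgals3 at 671 and Clec7a at 607, and Gpnmb was lowest at 0.722. Spp1 was first on day 1, 3, 7 and 21, with 47076 RPKM on day 7 against 4121 for Gpnmb, the next gene. At day 60 and 90 Lgals3 was first, at 7163 and 2987 RPKM, followed by Spp1 at 3543 and Gpnmb at 1984 on day 60 and by Gpnmb at 2114 and Spp1 at 1517 on day 90. Cst7 was last by mean on day 1, 3, 7, 60 and 90, though in day 7 replicate 2 it was at 78.4 RPKM and Ccl6 at 63.8, and it was at 506 RPKM on day 21.

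The genes most like each member over the 14 libraries were found by the root mean square difference of log2 CPM centred on each gene's own mean, among 7593 genes whose mean log2 CPM was 3 or more. Angptl4, a secreted lipase inhibitor, was closest to Spp1 at 1.20, where the median gene was at 3.41. Folr2 was closest to Gpnmb at 1.45 and Igf1 next at 1.52, with the median gene at 4.39. Folr2 is on the marker list of border-associated macrophages, whose summed level was higher after stroke as given above. Serpine2 was closest to Cst7 at 0.689, Dnase1l1 to Lgals3 at 0.536 and Prkcsh to Cd9 at 0.378. Rell1 was closest to Clec7a at 0.457, Cdk2ap2 to Ccl6 at 0.767 and Cbr2, another marker on the border-associated macrophage list, to Fabp5 at 0.709. Among the 8 genes themselves, the closest pair was Lgals3 and Fabp5 at 1.22 and the farthest Gpnmb and Ccl6 at 5.61. Over the 12 stroke libraries alone the closest pair was Cd9 and Clec7a at 0.955. The measure is small for genes that vary little, whether or not they move together. Cd9 and Clec7a had the lowest SD of log2 CPM of the 8 genes over these libraries, at 0.70 and 0.88.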

How the data were processed

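RNA of microglia sorted from mouse cerebral cortex was sequenced in 14 libraries, 2 for each of 7 groups. Raw counts per gene were deposited by the authors as 1 table and 14 single files, which held the same values; 23 gene symbols differed between them. Per the submitters' processing notes, the tools were Bowtie2 (2.3.4.2) and HTSeq, version 0.6.1, and the build was mm9. The sources used here do not give the annotation, strand setting or handling of reads with several matches. Total counts were 15254983 to 191692779 per library. Intervals cover counting error only.

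From the counts, edgeR 4.0.16 (R 4.3.3) was run with TMM factors, its filter on low counts by group (223 genes removed), robust quasi-likelihood fits of all 14 libraries on group means, and Benjamini-Hochberg adjustment over 13861 genes with calls under 0.05. The common biological coefficient of variation was 0.6388. Standard errors of log2 fold changes were derived from the F statistic of each test and not estimated on their own. Log2 CPM used a prior count of 2. Comparisons were 6 times against sham, 5 successive times and a joint test among the 6 times. The edgeR fit was also run on counts simulated from its own dispersions with planted changes. That simulation drew libraries independently, so it does not bear on how far the calls rest on single libraries. Alternatives were DESeq2 1.42.0, limma-voom (limma 3.58.1), other scalings and filters, a replicate block, fits of only the groups compared, equal depth and leaving out libraries.

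The members and lists were chosen with earlier results of these data known. Text names all 8 members, genes among the 3 called per list and time with the largest log2 fold change, and the genes most like each member; others are said to be chosen after their values were seen. Gene overlaps come from GENCODE vM21, and promoters from RefSeq on GRCm38.p6, a different build from the counts.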

Additional observations from a re-analysis of the deposited data

Results flagged for a closer look

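Cst7 differed among the 6 times after stroke in the joint edgeR test (adjusted p = 0.0343) with all 14 libraries. The call was lost in 12 of 14 fits that left out 1 library (0.0523 to 0.230), with limma-voom (0.108), with the replicate block (0.0614), without both sham libraries (0.0539) and without both day 21 libraries (0.439). Its level was 28.8 and 8.61 CPM at day 1, 28.9 and 43.9 at day 3, 37.2 and 77.3 at day 7, 106 and 892 at day 21, 33.6 and 35.8 at day 60 and 19.0 and 22.2 at day 90. Both day 21 libraries were above the 10 others. The day 21 libraries were also the least alike pair of the series, and the homeostatic microglia markers summed to 9823 and 29689 CPM in them. Neutrophil markers ran the other way, at 8345 and 972 CPM in the same libraries. The part of any of these in the Cst7 difference was not tested. Cst7 was not the only member called in a joint test under other tools. With limma-voom Ccl6 was called (adjusted p = 0.0462), and with DESeq2 Ccl6, Lgals3 and Spp1 were called besides Cst7.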

How the results depend on the processing

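Spp1 at day 1, 3 and 7, Gpnmb at day 7 and 90 and Ccl6 at day 7 kept their direction and their call in every alternative that could be fitted. The alternatives without both libraries of day 1, day 21 or sham were chosen after seeing the data, and without both sham libraries only comparisons between times could be fitted. With DESeq2, the counts of members called were 6 for day 1, 7 for day 3, 7 for day 7, 6 for day 90, 1 for day 7 against day 3, 3 for day 21 against day 7, 2 for day 60 against day 21 and 4 for the joint test, and of genes called over all 13861 were 1878 for day 1, 2667 for day 3, 3158 for day 7, 2447 for day 21, 2653 for day 60, 2616 for day 90, 5 for day 3 against day 1, 116 for day 7 against day 3, 387 for day 21 against day 7, 362 for day 60 against day 21, 23 for day 90 against day 60 and 1276 for the joint test. With the replicate block, the counts of members called were 5 for day 1 and 0 for the joint test, and of genes called over all 13861 were 1195 for day 1, 2002 for day 3, 2766 for day 7, 1584 for day 21, 1953 for day 60, 2006 for day 90, 2 for day 21 against day 7, 7 for day 60 against day 21 and 184 for the joint test. Without both day 21 libraries, the counts of members called were 5 for day 1 and 0 for the joint test, and of genes called over all 13861 were 1093 for day 1, 1802 for day 3, 1749 for day 60, 1796 for day 90, 5 for day 7 against day 3 and 273 for the joint test. With limma-voom, the counts of genes called over all 13861 were 1696 for day 21, 5 for day 7 against day 3, 4 for day 21 against day 7, 10 for day 60 against day 21 and 181 for the joint test. In fits of only the groups compared, the counts of members called were 0 for day 21, 6 for day 90 and 0 for the joint test, and of genes called over all 13861 were 0 for day 21, 1675 for day 60, 2620 for day 90, 31 for day 7 against day 3, 0 for day 60 against day 21 and 70 for the joint test. Without both day 1 libraries, the counts of genes called over all 13861 were 10 for day 21 against day 7 and 6 for day 60 against day 21. Without both sham libraries, the counts of members called were 0 for the joint test, and of genes called over all 13861 were 70 for the joint test. Leaving out 1 library at a time gave members called of 1 to 5 for day 1, 1 to 5 for day 3, 3 to 5 for day 7, 0 to 5 for day 21, 0 to 5 for day 60, 1 to 5 for day 90, 0 to 1 for day 21 against day 7, 0 to 2 for day 60 against day 21 and 0 to 2 for the joint test. The same gave genes called over all 13861 of 76 to 1098 for day 1, 225 to 1815 for day 3, 355 to 2457 for day 7, 68 to 2410 for day 21, 132 to 1750 for day 60, 129 to 1800 for day 90, 0 to 6 for day 7 against day 3, 0 to 259 for day 21 against day 7, 0 to 360 for day 60 against day 21 and 20 to 595 for the joint test. The cause of these changes was not tested. The Cst7 joint adjusted p was 0.108 with limma-voom, 0.0614 with the replicate block, 0.0539 without both sham libraries, 0.439 without both day 21 libraries and 0.0023 to 0.230 without 1 library, above 0.05 in 12 of those 14 fits. None of the differences that changed sign passed the test with all 14 libraries. With limma-voom, day 3 against day 1 was 0.52 for Fabp5 and 1.15 for Gpnmb, and Cd9 at day 60 against day 21 was -0.0023 with DESeq2 or its size factors, -0.0669 with upper-quartile scaling and -0.0003 with only the groups compared. Leaving out 1 library gave log2 fold changes of -0.0004 to 2.32 for Cd9, day 21 against sham, -0.79 to 0.0275 for Lgals3, day 21 against sham, -1.42 to 0.37 for Clec7a, day 3 against day 1, -1.04 to 2.50 for Fabp5, day 3 against day 1, -1.06 to 3.82 for Gpnmb, day 3 against day 1, -1.04 to 0.95 for Lgals3, day 3 against day 1, -1.45 to 0.78 for Spp1, day 3 against day 1, -2.41 to 0.25 for Ccl6, day 3 against day 1, -0.99 to 0.40 for Lgals3, day 7 against day 3, -0.19 to 0.24 for Clec7a, day 21 against day 7, -1.83 to 0.46 for Cd9, day 21 against day 7, -0.72 to 1.63 for Cd9, day 60 against day 21, -0.0166 to 2.31 for Spp1, day 60 against day 21 and -0.11 to 0.55 for Clec7a, day 90 against day 60. Same-numbered libraries deviated from their group means with r of 0.0710 to 0.677 over 21 pairs of groups (median 0.374), all positive. Any shift shared by replicate number, which cannot be told apart from depth, stayed in the residual spread of the main fit. The numbers were not treated as a pairing there because no label says that they pair samples. The replicate block is given as an alternative. Replicate 1 libraries are the shallow ones, and sham replicate 1 held 7 Gpnmb, 27 Cst7 and 167 Spp1 counts, which limits the precision of their folds.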
